A study of Mus musculus with 8 samples.

Results

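H3K27ac was measured by CUT&RUN at the loci of 3 mouse zinc finger regulators, Zbtb7c, Casz1 and Zbtb20, in colon cancer organoids with and without Gata6. CUT&RUN uses an antibody to direct a nuclease that releases the DNA around a chromatin mark. H3K27ac is an acetylated histone residue found at active promoters and enhancers. The members were the rows of the deposited peak table that overlapped 3 windows of the mm9 genome, on chromosome 18 from 75.9 to 76.35 Mb for Zbtb7c, on chromosome 4 from 148.04 to 148.36 Mb for Casz1 and on chromosome 16 from 42.85 to 43.67 Mb for Zbtb20. The windows held 12, 27 and 4 peaks, which is 43 of the 22731 peaks in the table. The windows were chosen by H3K27ac differences between the genotypes in these same libraries, so differences between the genotypes are given here as a description. No window was tested. The calls given for single members come from a fit to all peaks on this same contrast, and add no support. All 43 peaks passed the filter on low counts.

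Both groups are AKP colon cancer organoids, and the knockout group is labelled Gata6KO_AKP. The labels do not spell out the alleles behind the name AKP, nor how Gata6 was removed, nor whether a line is a single clone. C57Bl6 is given as the strain of recipient mice. Each group had 3 H3K27ac libraries, and an H3K4me3 and an IgG library from control organoids were not analysed here, so no background was subtracted. Nothing in the labels says that the replicates were separate cultures, and acetylation at Gata6 itself was not analysed here as a check of the labels.

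ZBTB7C and ZBTB20 belong to a family of transcription factors that join a BTB domain, which mediates contacts between proteins, to a set of DNA-binding zinc fingers, and both are known mainly as repressors. ZBTB20 is known for repressing alpha-fetoprotein in liver and for its role in the developing hippocampus. CASZ1 is the mammalian relative of the fly factor Castor, has zinc fingers but no BTB domain, and is known for roles in heart, vessel and nerve development. GATA6 is a zinc finger factor of another class, which binds sites with the core letters GATA and acts in the epithelium of the gut. A factor that binds an enhancer can recruit the enzymes that acetylate histones there, so acetylation over a gene is often read beside the loss of such a factor, although acetylation is not a measure of transcription.

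The start regions of Casz1 and Zbtb20 are shown because they were the sequences available here for these genes. They were searched only for GATAA, on either strand, and do not survey the GATA sites of these genes. The 250 bases before each annotated start were taken from the RefSeq promoter table of GRCm38.p6, which has 2 entries for Casz1 and 1 for Zbtb20, all on the plus strand. Capitals mark GATAA or, for the other strand, TTATC. These coordinates belong to GRCm38.p6 and cannot be laid over the mm9 peaks.
Casz1, chr4:148804142-148804391 (GRCm38.p6): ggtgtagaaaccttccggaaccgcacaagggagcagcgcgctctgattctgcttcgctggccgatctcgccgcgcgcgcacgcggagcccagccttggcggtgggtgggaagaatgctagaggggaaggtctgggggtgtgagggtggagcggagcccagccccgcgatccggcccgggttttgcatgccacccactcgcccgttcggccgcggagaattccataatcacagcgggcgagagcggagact
Casz1, chr4:148889097-148889346 (GRCm38.p6): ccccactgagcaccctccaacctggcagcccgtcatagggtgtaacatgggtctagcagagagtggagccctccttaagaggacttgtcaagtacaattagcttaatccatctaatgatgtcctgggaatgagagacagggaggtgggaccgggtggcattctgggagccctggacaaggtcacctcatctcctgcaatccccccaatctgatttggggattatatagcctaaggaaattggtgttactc
Zbtb20, chr16:43247034-43247283 (GRCm38.p6): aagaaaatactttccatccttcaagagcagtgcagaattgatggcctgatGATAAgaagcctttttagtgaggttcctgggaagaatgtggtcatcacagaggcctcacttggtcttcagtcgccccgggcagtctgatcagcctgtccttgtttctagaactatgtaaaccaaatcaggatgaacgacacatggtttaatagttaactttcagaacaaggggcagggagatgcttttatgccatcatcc

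The first Casz1 region had 27 CG dinucleotides and a GC content of 66.8%, whereas the second had 2 and 52.0%. Neither held the searched letters, which says only that these letters are not in these 250 bases. The Zbtb20 region held 1 match, on the plus strand, beginning 200 bases before the start, and its GC content was 44.8%. Of all 32851 promoter entries in the table, 22.6% held at least 1 match in the same 250 bases. Whether any of these regions lies under an acetylated peak was not determined, since the peak table names no genes and no mm9 annotation was used here.

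Reads in peaks numbered 5141856 to 7026388 per library, and the median peak held 144 to 196 reads. Between 82.8% and 88.9% of the counts in each library were even, as counting both mates of a pair would give; how pairs were counted is not given in the sources used here, so a peak's reads may stand for fewer fragments. Levels are CPM, the usual depth-scaled counts, taken over the reads in peaks and scaled by edgeR's TMM factors, so a change common to all peaks would not be seen. A peak is called where edgeR's quasi-likelihood test, fitted over all 22731 peaks, gave a Benjamini-Hochberg adjusted p under 0.05. Of all peaks, 11.6% were called higher in the knockout and 10.2% lower, and the median log2 fold change was -0.01. Errors on levels, sums and shares are SDs over the 3 libraries of a genotype, and errors on log2 fold changes are standard errors (SE) of the fit.

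Acetylation was higher in the knockout across the Zbtb7c window and across the first 18 peaks of the Casz1 window, and lower at the 4 peaks of the Zbtb20 window. At Zbtb7c the summed level of the 12 peaks was 357, 361 and 348 CPM in control replicates 1 to 3 and 624, 596 and 593 CPM in knockout replicates 1 to 3. All 3 knockout sums lay above all 3 control sums, and the ratio of group means was 1.70. At Casz1 the 27 peaks summed to 1303, 1289 and 1313 CPM in control and 1548.5, 1555 and 1636 CPM in knockout libraries, a ratio of 1.21. At Zbtb20 the 4 peaks summed to 168, 186 and 158 CPM in control and 87.2, 94.3 and 82.9 CPM in knockout libraries, a 1.93-fold lower mean. Groups did not overlap at any of the 3 windows, and the Casz1 sums had the smallest ratio between genotypes but the largest absolute difference.

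**Figure D1:**
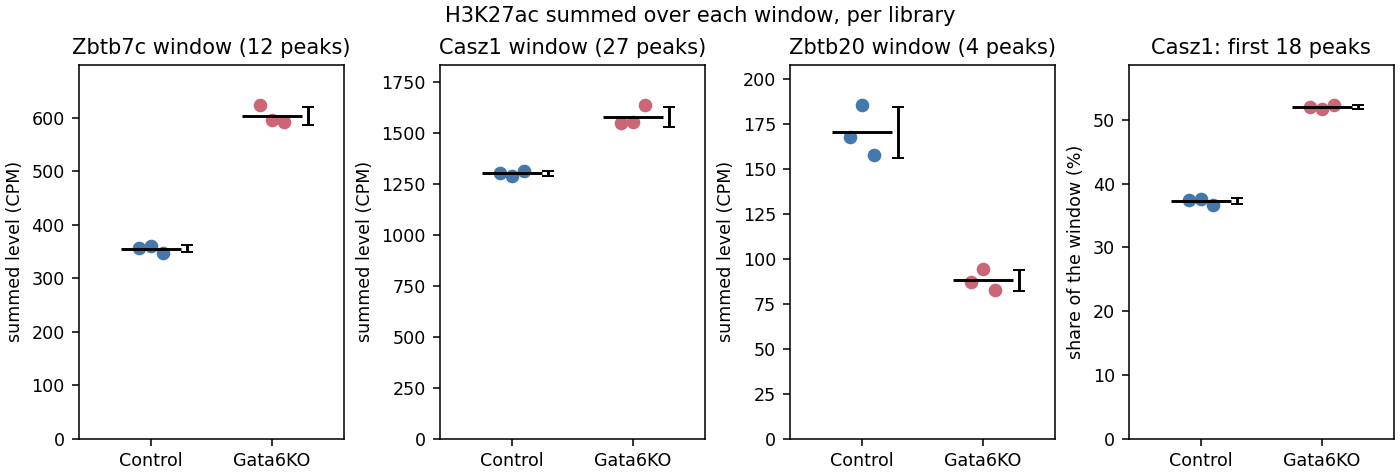
Summed H3K27ac level of each window in CPM (y axis, from 0) in the 3 Control and 3 Gata6KO libraries, with the share of the Casz1 window held by its first 18 peaks (%) in the last panel. Points are libraries, horizontal lines are group means and bars beside them are 1 SD; the knockout libraries lie above the controls for Zbtb7c (604 ± 16.9 against 355 ± 6.56 CPM), Casz1 and the Casz1 share, and below them for Zbtb20 (88.1 ± 5.77 against 170.4 ± 14.0 CPM).

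Per kilobase of peak, the control level was 9.13 CPM at Zbtb7c, 9.65 CPM at Casz1 and 13.7 CPM at Zbtb20, and the knockout level was 15.5, 11.7 and 7.07 CPM. Zbtb20 thus had the highest density of the 3 in control and the lowest in knockout organoids. These values pool all peaks of a window. The median density of single peaks in control libraries was 6.07 CPM per kb at Zbtb7c, 7.19 at Casz1 and 14.0 at Zbtb20. Over the whole table it was 10.75 CPM per kb. The windows also differed in how they were filled. Peaks covered 42.2% of the Casz1 window, 8.65% of the Zbtb7c window and 1.52% of the Zbtb20 window, and lay 8.44, 2.67 and 0.488 to each 100 kb. In the RefSeq gene table of GRCm38.p6, used for names, lengths and order only, Casz1 is 151 kb long, Zbtb7c 328 kb and Zbtb20 759 kb. The Casz1 peaks spanned 306 kb and the Zbtb7c peaks 386 kb, so neither set can lie wholly within its gene. The Zbtb20 peaks spanned 83.0 kb, and whether all 4 lie within Zbtb20 was not determined. Peaks are therefore named by their window, not assigned to a gene.

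Acetylation was higher in the knockout at nearly all peaks of the Zbtb7c window, some of which must lie outside the gene. Of the 12, 11 were called higher and none lower, against 11.6% and 10.2% of all peaks, and these shares add nothing because the window was chosen on the same contrast. The same 11 had all 3 knockout libraries above all 3 controls, which held for 17.5% of all peaks. Their log2 fold changes ran from 0.44 to 1.34, and the median of the 12 was 0.82. The protein-coding genes on either side of Zbtb7c in the RefSeq order are Ctif and Smad2.

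The 12 peaks stood in 3 groups separated by gaps of 107 and 159 kb. The first group of 4 peaks lay on chromosome 18 from 75916259 to 75942481 and summed to 157.5 ± 5.05 CPM in control and 267 ± 11.9 CPM in the knockout. A lone peak from 76049951 to 76052854 held 17.0, 18.1 and 18.05 CPM in control and 29.8, 35.6 and 32.1 CPM in knockout libraries. The last group of 7 peaks, from 76211870 to 76302271, summed to 180.1 ± 9.75 and 305 ± 11.8 CPM. The ratios of the 3 groups were 1.70, 1.83 and 1.69, so the 3 groups rose by similar ratios. The run of 11 adjacent called peaks, from 75916259 to 76288747, summed to 346 ± 6.06 CPM in control and 589 ± 16.6 CPM in the knockout.

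The strongest peak of the window in both genotypes was also its densest, with 18.1 CPM per kb in control libraries. It lay from 75933602 to 75937879 and held 72.4, 78.5 and 81.9 CPM in control and 123, 118 and 100.1 CPM in knockout libraries. Its log2 fold change, 0.55 ± 0.09 (SE), was the second smallest of the window. The peak with the second highest control level, from 76283704 to 76288747, held 69.7, 59.2 and 55.6 CPM in control and 84.6, 80.9 and 84.0 CPM in knockout libraries, and its log2 fold change of 0.44 ± 0.11 was the smallest of the 12. The 4 strongest control peaks together held 68.6% ± 1.17 of the window's level in control and 65.2% ± 0.852 in the knockout, so the other 8 peaks took a larger share in the knockout.

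The widest Zbtb7c peak, 6369 bp from 75916259 to 75922627, held 45.6, 48.3 and 45.8 CPM in control libraries. In the knockout it held 94.4, 83.4 and 99.1 CPM, which is 0.99 ± 0.11 (SE) on the log2 scale. The next peak, from 75923385 to 75926299, begins 0.757 kb further on and went from 26.8, 21.6 and 20.6 CPM to 43.5, 44.6 and 43.0 CPM. In both peaks the lowest knockout library lay far above the highest control library.

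The largest ratio of the window belonged to a weak peak from 76230875 to 76233133, with 16.002, 10.5 and 14.3 CPM in control and 27.9, 30.8 and 44.9 CPM in knockout libraries. It rose 2.53-fold, with a log2 fold change of 1.34 ± 0.18 (SE), and knockout replicate 3 stood well above the other two. Its neighbour from 76221242 to 76223722 held 12.001, 14.0 and 13.5 CPM in control and 29.8, 22.9 and 23.7 CPM in knockout libraries, and rose 1.93-fold. The last peak of the window, from 76300698 to 76302271, was the one not called. It held 4.87, 14.8 and 7.73 CPM in control and 15.5, 18.5 and 11.4 CPM in knockout libraries, so the groups overlapped, on 28 to 76 reads in each control library. Its log2 fold change was 0.74 ± 0.32, and it was called without control replicate 2 (1.25), without knockout replicate 3 (0.91) and with a replicate block (0.80).

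Weak peaks leaned to gains over the whole table, which bears on the weak members. In the lowest 20% of peaks by mean level over the 6 libraries the median log2 fold change was 0.13 and 13.4% were called higher. Of the members, 4 of the 12 Zbtb7c, 6 of the 27 Casz1 and 1 of the 4 Zbtb20 peaks fell in that class. Against peaks of like level, in 20 classes, 7 of the 12 Zbtb7c peaks lay above the 95th percentile of log2 fold change and none below the 5th. The window was chosen on this same contrast, so that count is a description and adds no support. Chromosome 18 as a whole had 16.3% of its 689 peaks called higher and 6.10% lower, with a median log2 fold change of 0.02.

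**Figure D2:**
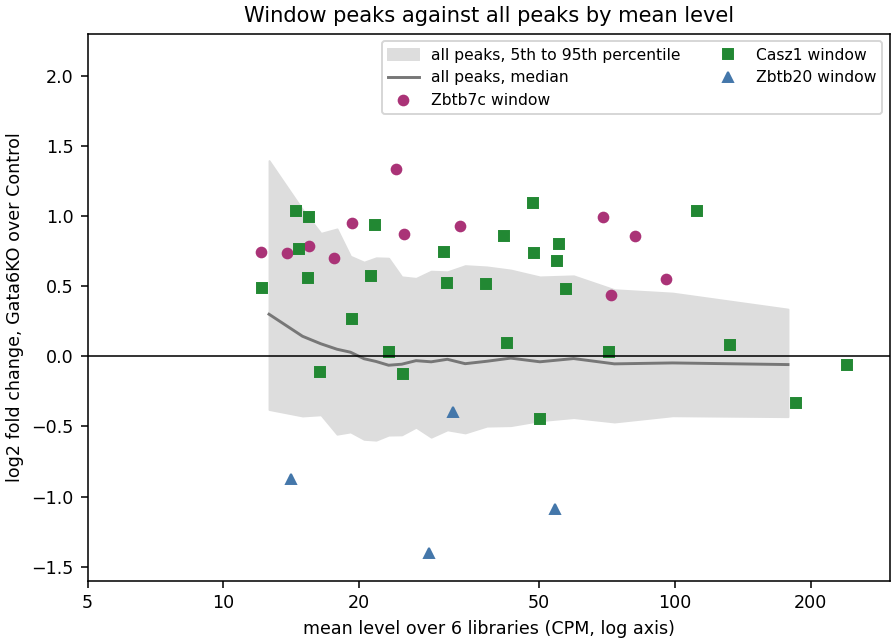
Log2 fold change of each window peak (y axis) against its mean level over the 6 libraries in CPM (x axis, log scale), over the median (line) and the 5th to 95th percentile (band) of all 22731 peaks in 20 classes of level. Of the Zbtb7c peaks 7 of 12 and of the Casz1 peaks 8 of 27 lie above the band, and 3 of the 4 Zbtb20 peaks lie below it. The windows were chosen on this same contrast, so these counts add no support.

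The called gains of the Casz1 window ended before its last peaks. The first 18 peaks, on chromosome 4 from 148054240 to 148273364, summed to 487, 484 and 482 CPM in control and 806, 804 and 856 CPM in knockout libraries, a ratio of 1.70. The last 9 peaks, from 148276321 to 148360684, summed to 816, 805 and 831 CPM in control and 743, 750 and 780 CPM in knockout libraries, a ratio of 0.927. By these sums the knockout libraries lay above the controls in the first part and below them in the second. In the second part 2 peaks were called lower, with sums of 265 CPM in control and 207 CPM in the knockout. The other 7 peaks of that part had overlapping groups. The boundary was set after the values were seen, just past the last peak called higher.

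Because both parts come from the same libraries, their proportion does not depend on how libraries were scaled. The first part held 37.4%, 37.6% and 36.7% of the window's level in control and 52.0%, 51.7% and 52.3% in knockout libraries. The boundary was placed by the calls, so a higher share in the knockout follows from that choice and does not support the division. Over the whole window 15 of 27 peaks were called higher and 2 lower, against 11.6% and 10.2% of all peaks. All 15 lie in the first part, as the boundary fixes, and the other 3 peaks of that part also had log2 fold changes above 0. The 2 called lower are among the 9 peaks of the second part. By separation of the libraries, 15 of 27 peaks had knockout libraries all above the controls and 2 had them all below, against 17.5% and 16.2% of all peaks. These 15 and the 15 called higher shared 14 peaks. The comparisons with all peaks add nothing here, since the window was chosen on the same contrast.

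**Figure D3:**
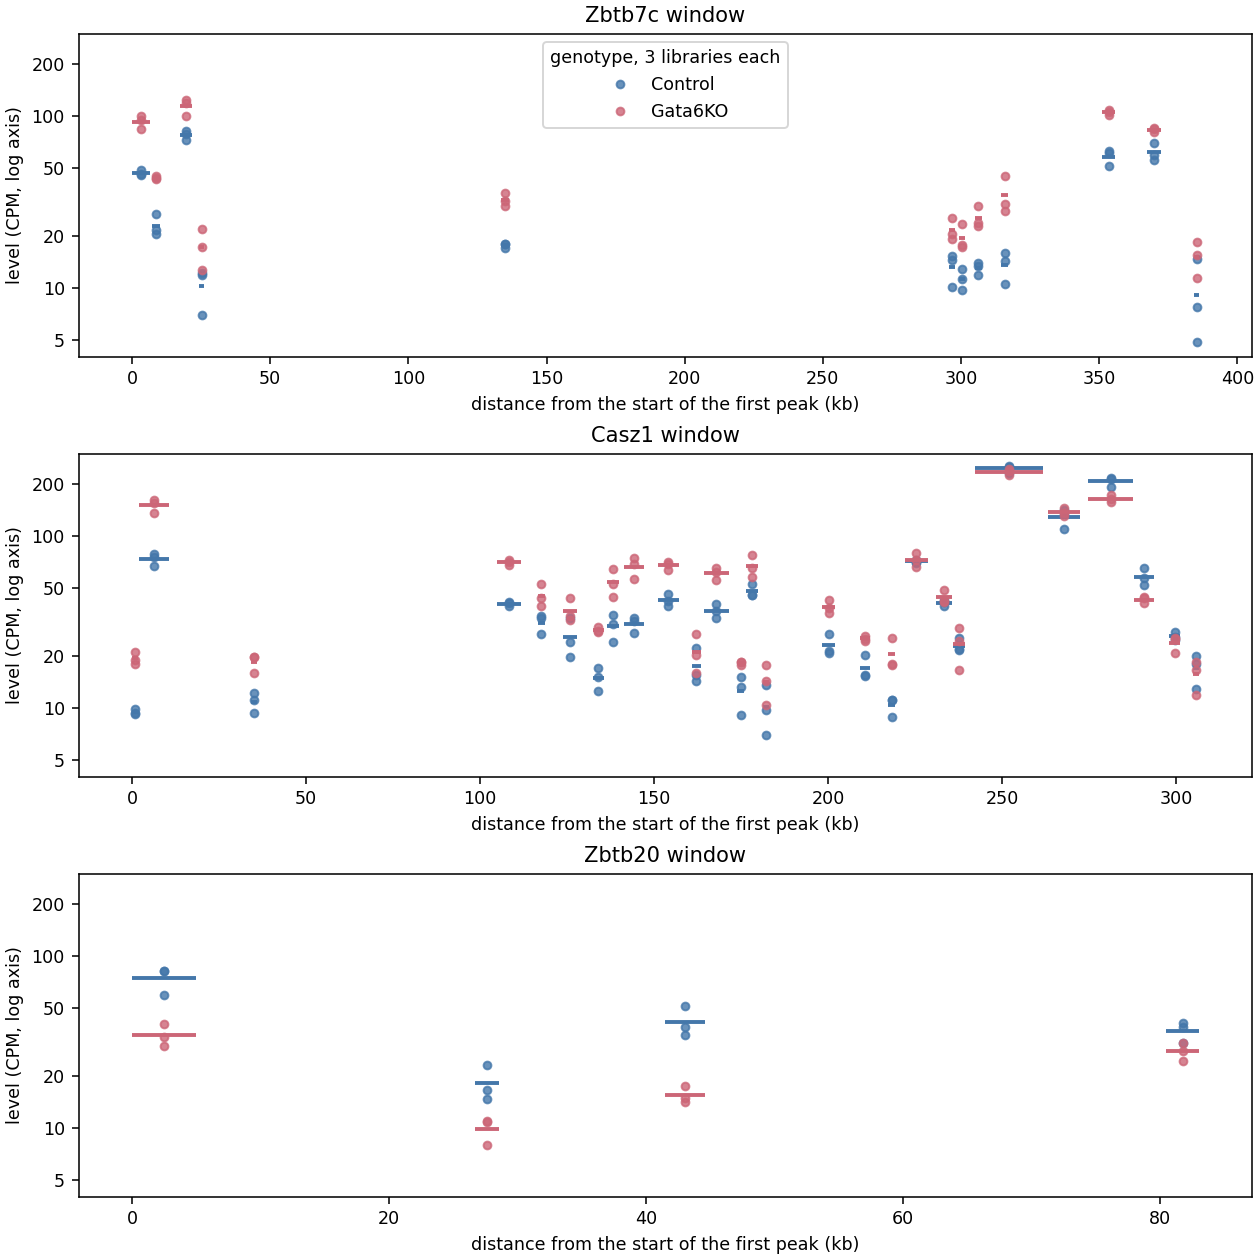
H3K27ac level of each peak (y axis, CPM, log scale) by distance from the start of the first peak of its window (x axis, kb), for Zbtb7c, Casz1 and Zbtb20. Points are the 3 Control and 3 Gata6KO libraries, and lines mark peak widths at the group means; in the Casz1 panel the knockout mean lies above the control mean until 219 kb and close to it or below it after that.

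The first part of the Casz1 window began with a pair of peaks that nearly touched. The larger, from 148056377 to 148064903, held 66.6, 75.6 and 77.9 CPM in control and 135, 156 and 161 CPM in knockout libraries. It was the strongest peak of the first part in both genotypes, 8527 bp wide, and rose 2.05-fold (log2 fold change 1.04 ± 0.09, SE). The smaller, from 148054240 to 148056112, held 9.22, 9.35 and 9.88 CPM in control and 19.2, 18.1 and 21.2 CPM in knockout libraries, a 2.05-fold rise. It was weak, at percentile 6.20 of mean level over the 6 libraries. Its log2 fold change of 1.04 was below the 95th percentile of its class of level, 1.05, and was 0.82 with trended offsets. After another weak peak followed an empty stretch of 68.8 kb, the longest gap in the window.

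Beyond that gap the peaks stood close together. The largest ratio of the window was found there, from 148195543 to 148201399, with 33.4, 27.3 and 32.1 CPM in control and 74.2, 68.2 and 55.8 CPM in knockout libraries (log2 fold change 1.09 ± 0.13, SE). The first 10 peaks of the window were all called higher, and their summed level was 309 ± 2.11 CPM in control and 556 ± 21.1 CPM in the knockout. They ended at 148211247. The peak from 148178102 to 148181961 was called although its groups overlapped, with 19.8, 33.5 and 24.1 CPM in control and 34.1, 32.65 and 43.6 CPM in knockout libraries.

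Over the next 5 peaks, calls alternated with peaks that were not called. The 3 uncalled peaks of the first part had log2 fold changes of 0.26 to 0.56 and mean control levels of 10.1 to 17.5 CPM. The part ended with 3 adjacent called peaks, from 148252582 to 148273364, which summed to 50.6 ± 6.92 CPM in control and 84.4 ± 3.23 CPM in knockout libraries. The last of them, from 148271547 to 148273364, held 11.1, 11.1 and 8.88 CPM in control and 17.8, 18.1 and 25.7 CPM in knockout libraries, and rose 1.99-fold. It too was weak, at percentile 8.99 of mean level, and its log2 fold change of 0.99 was 0.82 with trended offsets.

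The next peak began 2.96 kb further on and was not called. It lay from 148276321 to 148282801 and held 72.5, 70.9 and 69.3 CPM in control and 72.1, 65.7 and 79.2 CPM in knockout libraries, and its log2 fold change was 0.03 ± 0.11 (SE). The first 5 peaks past the boundary had log2 fold changes between -0.06 and 0.10, and in each the groups overlapped.

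The second part held the strongest acetylation of the window. Its widest peak, 19395 bp from 148296545 to 148315939, held 254, 251 and 232 CPM in control and 225, 238 and 242 CPM in knockout libraries, and was the strongest Casz1 peak in both genotypes. It ranked at the 98.8th percentile of control level among all peaks, and its log2 fold change was -0.06 ± 0.06 (SE). The peak with the second highest control level, from 148328947 to 148341748, held 191, 215 and 215 CPM in control and 156, 164 and 172 CPM in knockout libraries. It was the densest peak of the window in control libraries, with 16.2 CPM per kb, and fell by 0.34 ± 0.07 (SE) on the log2 scale, with no overlap of the groups.

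Its neighbour from 148342099 to 148347915 held 56.7, 51.8 and 64.9 CPM in control and 40.6, 43.9 and 43.3 CPM in knockout libraries, and fell by 0.44 ± 0.13 (SE) on the log2 scale. Without control replicate 3, whose level was the highest of the 6 here, its log2 fold change was -0.35 and it was not called. These 2 peaks, the only Casz1 members called lower, summed to 265 ± 15.9 CPM in control and 207 ± 9.18 CPM in the knockout. The 3 strongest control peaks of the window held 44.7% ± 0.101 of its level in control and 33.9% ± 0.663 in the knockout. The RefSeq order places Gm572 before and Pex14 after Casz1, and to which of these genes each peak belongs was not determined.

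**Figure D4:**
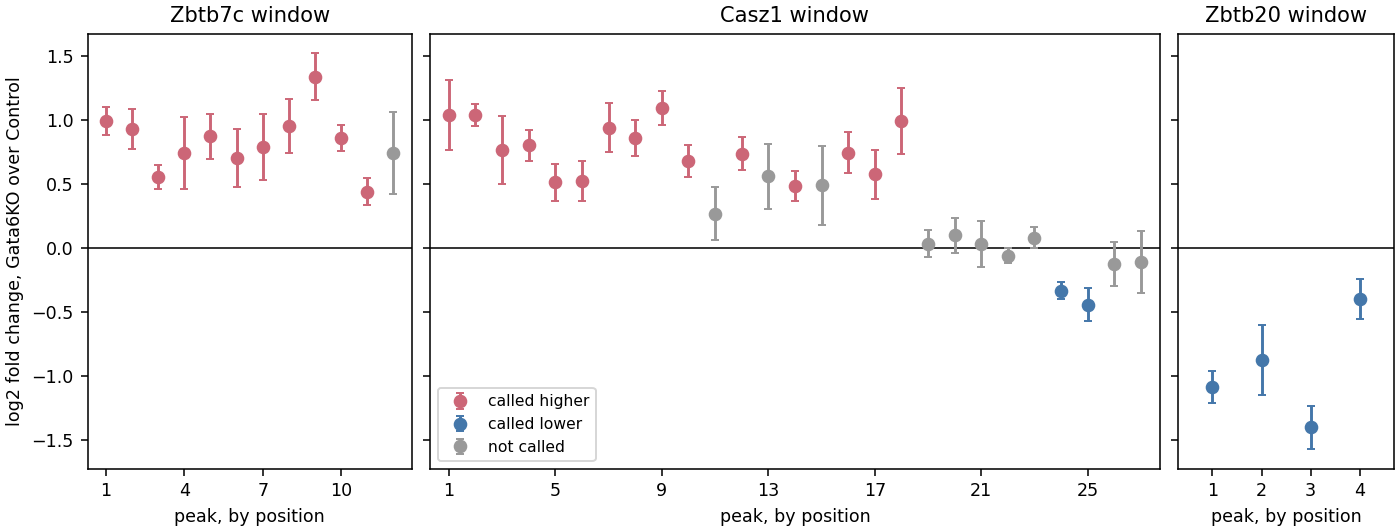
Log2 fold change of Gata6KO over Control (y axis) for each peak of the 3 windows in order of position (x axis), with bars of 1 SE from the fit to all peaks and colours for peaks called higher, lower or not called. All 12 Zbtb7c values and the first 18 Casz1 values lie above 0, and all 4 Zbtb20 values lie below it.

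Acetylation was lower in the knockout at each of the 4 peaks of the Zbtb20 window, which end 4.36 kb before the end of the window. All 4 were called lower, against 10.2% of all peaks, and all 4 had the knockout libraries below the controls, against 16.2%. As at Zbtb7c, these shares add nothing because the window was chosen on the same contrast. No peak was present in the 733 kb from the start of the window to the first member, so the acetylation over this long gene's window rested on 12.5 kb of peaks. The RefSeq order places Gap43 before and Drd3 after Zbtb20.

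The first Zbtb20 peak, on chromosome 16 from 43582646 to 43587665, was the widest, the strongest in both genotypes and the densest in control. It held 81.1, 81.4 and 59.6 CPM in control and 33.8, 40.3 and 30.1 CPM in knockout libraries, and fell by 1.09 ± 0.12 (SE) on the log2 scale. The largest loss was at the third peak, from 43624113 to 43627195, with 38.6, 51.0 and 34.7 CPM in control and 14.3, 14.9 and 17.5 CPM in knockout libraries. That is a 2.65-fold lower level, with a log2 fold change of -1.40 ± 0.17 (SE). In both peaks control libraries were spread more widely than knockout libraries, yet the lowest control lay well above the highest knockout value.

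The remaining pair changed less in level. The second peak, from 43609364 to 43611210, held 16.7, 14.8 and 23.2 CPM in control and 11.0, 7.98 and 10.9 CPM in knockout libraries, with 44 to 68 reads in each knockout library. Its log2 fold change was -0.88 ± 0.28 (SE), and without control replicate 3 it was -0.66 and not called. The last peak, from 43663125 to 43665642, held 31.3, 38.4 and 40.5 CPM in control and 28.2, 31.2 and 24.4 CPM in knockout libraries, where the highest knockout and the lowest control value were almost equal. Its log2 fold change was -0.40 ± 0.15 (SE), and its call was lost without control replicate 2 or 3, without knockout replicate 1 or 3, with total counts as the scale and with trended offsets, at -0.31 to -0.41. Without control replicate 3, then, 2 of the 4 Zbtb20 peaks were called.

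The last Zbtb20 peak made up 18.7%, 20.7% and 25.7% of the window's level in control and 32.3%, 33.1% and 29.4% in knockout libraries, a proportion that does not depend on scaling. Its share was higher in every knockout library than in any control library, as the 3 peaks before it lost more. The first peak's share, by contrast, overlapped between the genotypes, at 37.7% to 48.3% in control and 36.4% to 42.7% in knockout libraries.

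The nearest peak past each window edge is described here. The edges were set with the windows, so these peaks do not show where a change ends. Before Zbtb7c, the nearest peak outside lay 53.7 kb from the window, from 75844645 to 75846291, with 16.002, 16.7 and 14.9 CPM in control and 20.2, 22.5 and 20.8 CPM in knockout libraries. It was not called, at a log2 fold change of 0.42 ± 0.22 (SE), although its groups did not overlap. After Zbtb7c the next peak came 107 kb past the window, from 76456528 to 76458293, at -0.06 ± 0.22 and with overlapping groups. The first member inside had 0.99 and the last 0.74.

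On chromosome 4, the peak 38.5 kb before the Casz1 window, from 147999834 to 148001471, had a log2 fold change of 0.30 ± 0.18 (SE) and overlapping groups, next to 1.04 for the first member. The peak 42.4 kb after the window, from 148402395 to 148405473, held 30.8, 43.0 and 31.8 CPM in control and 24.7, 25.4 and 28.5 CPM in knockout libraries. It was called lower, at -0.42 ± 0.16, which is the direction of the 2 Casz1 peaks called lower. That call was lost without control replicate 2 (-0.25), knockout replicate 1 (-0.38) or knockout replicate 2 (-0.40), and with trended offsets (-0.39). The last member inside had -0.11 ± 0.24, was not called, and ran 684 bp past the window's end.

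Around Zbtb20, the nearest peak before the window lay 904 kb from the first member, from 42676467 to 42678738. It went the other way, with 10.4, 11.3 and 7.73 CPM in control and 22.3, 21.9 and 18.6 CPM in knockout libraries, and was called higher, at a log2 fold change of 1.10 ± 0.26 (SE). This peak was weak, at percentile 8.8 of mean level over the 6 libraries. Its log2 fold change was 0.93, still called, with trended offsets. The next peak after the last member came 296 kb further on, from 43961768 to 43964287, at -0.30 ± 0.18, with overlapping groups and not called.

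The spread between libraries of a genotype was close to that of the table at Zbtb7c and Casz1. The median coefficient of variation of the member levels was 12.9% in control and 12.8% in knockout libraries at Zbtb7c, and 11.4% and 8.88% at Casz1. Zbtb20 had 18.8% and 13.5%. Over all peaks the medians were 10.9% and 11.3%. Widths also differed, with medians of 2692.5 bp at Zbtb7c, 3600.0 bp at Casz1 and 2800.5 bp at Zbtb20, against 2690.0 bp over all peaks, and 19 of the 27 Casz1 peaks were wider than that.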

How the data were processed

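Raw counts over 1 shared peak set, not normalized, were deposited for 6 H3K27ac libraries. The build mm9 and the tools Bowtie, Picard, SAMtools, SEACR and bedtools are named in the submitters' processing notes, with no version; the sources used here do not give how peaks were merged or counted. The windows, members and lists were chosen with earlier results of these data known. All 22731 peaks were fitted with edgeR 4.0.16 in R 4.3.3 (filterByExpr, TMM, quasi-likelihood test, group as the only term, two-sided, Benjamini-Hochberg adjustment), which was tested on simulated data. The replicates may be technical, so calls rest on the spread between these samples. Standard errors came from the F statistic. Member levels were summed per library as TMM-scaled CPM. Named peaks were, in each window, the 2 strongest control peaks, the strongest knockout peak, up to 4 called gains and 4 called losses without overlap, the widest, the densest, the ends of runs of at least 2 adjacent calls, and the peaks at and past the window edges; others were chosen after their values were seen. Alternatives were DESeq2 1.42.0, other scalings, filters and thresholds, halved counts and other windows. Further ones were a fit without chromosome 5, a replicate block, and leaving out each library in turn. The Casz1 parts and their alternatives were chosen after seeing the data. Gene lists could not be used, since the peak table names no genes and no mm9 annotation was used here. Sequence from chromosome 18 is not reported here.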

Additional observations from a re-analysis of the deposited data

How the results depend on the processing

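Higher calls among members numbered 8 to 12 at Zbtb7c and 12 to 15 at Casz1 over all alternatives. Lower calls ranged from 1 to 2 at Casz1 and from 2 to 4 at Zbtb20 as single libraries were left out, the lowest in each case without control replicate 3. At an adjusted p under 0.01, 1478 peaks of the table were lower in place of 2320. With chromosome 5 left out of the fit, 2347 peaks were higher in place of 2640, and 1857 were lower. The log2 ratio of sums at Zbtb7c, 0.77, was 0.82 without the strongest peak and 0.82 as the median over peaks. At Casz1, 0.28 became 0.35 without the strongest peak, 0.52 as the median over peaks and 0.39 with the window narrowed by 50 kb a side, which removes peaks at both ends. The first Casz1 part, 0.76, was 0.71 without its strongest peak, and the second, -0.11, was -0.062 as the median over peaks. No sum changed direction under any alternative run. These runs reuse the same libraries, and the Casz1 parts were divided by their calls, so unchanged directions add no support. For the 18 called peaks that the naming rule picked, 276 of 288 values kept direction and call, 12 lost the call and 0 reversed. Those 12 concern the Casz1 peak from 148342099, the peak past that window from 148402395 and the Zbtb20 peaks from 43609364 and 43663125. The 18 peaks were counted because the main fit called them. The alternatives refit the same libraries, so the number of values kept adds no support. Replicate numbers are shared between groups but nothing says that they pair the libraries: deviations of same-numbered libraries correlated at 0.00591 to 0.0668, and some libraries had a higher correlation with another number. With the number as a replicate block, 2704 peaks were higher and 2409 lower, and the 12 Zbtb7c peaks were all called. Weak members rest on as few as 28 reads in a library, which limits the precision of their ratios.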
